A study of Homo sapiens with 6 samples.

Results

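The 8 microRNAs (miRNAs) described here, hsa-miR-9, hsa-miR-124, hsa-miR-128, hsa-miR-132, hsa-miR-137, hsa-miR-138, hsa-miR-153 and hsa-miR-218 (below without the species prefix), are known from brain tissue and were measured in HEK-293FT, a human embryonic kidney cell line that carries the SV40 large T antigen. They were chosen by name among the 377 human miRNA assays of a quantitative PCR card. Of the names, 6 equalled an assay name of the card, while miR-124 and miR-128 are listed there under the older names miR-124a and miR-128a and were matched through the deposited miRBase names miR-124-3p and miR-128-3p. The cells were transfected with small interfering RNA (siRNA), with 3 samples labelled as TruB1 knockdown and 3 as control. What the control cells received, the siRNA sequence and the time after transfection are not given in the sources used here. TruB1 modifies uridines of transfer RNA to pseudouridine, and its own level was not analysed here. Each sample carries a series number from 1 to 3 shared by a control and a knockdown sample. Whether these are separate cultures is not stated, so the p-values measure the spread between these samples, which may be technical.

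A miRNA is a short RNA cut from a hairpin precursor, and it represses messenger RNAs that pair with its seed, bases 2 to 8 counted from the 5′ end. miR-9 and miR-124 are classical regulators of neural progenitors and neurons, miR-132 is induced by neuronal activity, and miR-138 acts in dendritic spines. In many cells outside the nervous system the repressor REST holds several of these genes down. HEK-293 lines are nonetheless known to express a number of neuronal genes.

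The mature sequences from RefSeq (GRCh38.p14) are shown for the members with a determined well, where the table holds them, to set their seeds side by side, with the seed in capitals. The assay target in the deposited table was identical to each of them. miR-212 is added because its seed is that of miR-132, and miR-27b because it holds the start of miR-128.
miR-218: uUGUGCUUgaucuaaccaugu
miR-9: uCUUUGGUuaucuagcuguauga
miR-138: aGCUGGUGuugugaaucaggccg
miR-132: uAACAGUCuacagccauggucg
miR-212: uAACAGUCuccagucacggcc
miR-128: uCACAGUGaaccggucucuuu
miR-27b: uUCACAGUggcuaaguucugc
miR-137: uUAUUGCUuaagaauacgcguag
No seed is shared between these members. From position 1 at the 5′ end, miR-212 differs from miR-132 by A10C, C14U, U17C and U20C, all outside the seed, and is shorter at the 3′ end (21 against 22 bases). Bases 1 to 8 of miR-128 recur as bases 2 to 9 of miR-27b, so the seeds of these miRNAs are offset by 1 base. On the card the seed of miR-124 is shared by miR-506, which was undetermined in all 6 samples.

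Several of the genes lie inside longer genes, and identical mature miRNAs can come from more than 1 locus, which the assay cannot separate. On GRCh38.p14, miR-218 is encoded on chromosome 4 (20528299 to 20528319, plus strand) within the span of SLIT2 and on chromosome 5 (168768211 to 168768231, minus strand) within that of SLIT3, genes of secreted axon guidance proteins. miR-9 has 3 loci, on chromosomes 1, 5 and 15, each within a long noncoding host gene (MIR9-1HG, MIR9-2HG and MIR9-3HG). miR-128 lies within R3HDM1 on chromosome 2 and ARPP21 on chromosome 3, and miR-138 at loci on chromosomes 3 and 16. miR-132 (chromosome 17, 2049929 to 2049950, minus strand) and miR-212 (2050290 to 2050310) are neighbours on 1 strand. miR-137 lies within MIR137HG on chromosome 1. Whether a locus is exonic or intronic was not analysed here.

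The measure is the threshold cycle (Ct), the PCR cycle at which a well's signal crosses a set level, so that an earlier Ct means more template and a step of 1 cycle is a factor of 2 at full efficiency. A Ct under 35 was counted as detected, and wells that never crossed within 40 cycles are undetermined. The cards gave a Ct under 35 for 188 to 226 miRNA assays per sample, and 157 assays were under 35 in all 6. The deposited level is a ratio to U6, a small nuclear RNA with 4 wells per card, of which 2 to 4 were determined. The determined U6 wells of a card spanned from 0.36 cycles in knockdown 3 to 2.77 in control 1. Control 3 had 2 such wells, 1.82 cycles apart. Ratios compared between cards rest on the mean of these wells. Mean U6 Ct was 12.2 and 13.2 in control and knockdown of series 3 against 14.0 to 15.4 in the other samples. An earlier U6 Ct lowers every ratio to U6 on its card. Single assays could still have higher ratios in series 3, as miR-138 and miR-218 had in control 3 against control 2. As a second scale, each Ct was therefore also set against the mean Ct of the 157 commonly detected assays of its card. A card reads the RNA of a whole culture, in which fewer expressing cells and less RNA per cell cannot be told apart.

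Of the 8 brain-enriched miRNAs, 5 were detected in all 6 samples: miR-218, miR-9, miR-138, miR-132 and miR-128. miR-124, a neuron-specific miRNA, was detected in 5 samples and undetermined in knockdown 3. miR-137, a miRNA of neuronal development, was detected late in knockdown 1 (Ct 32.8) and knockdown 3 (Ct 31.2) and was undetermined in knockdown 2 and all 3 controls. miR-153, whose known targets include synaptic vesicle genes, was undetermined in all 6 samples. The share detected in every sample was 62.5% of the 8 against 41.6% of the 377 assays on the card, a description with no test. Per sample, 6 members were detected, except for 7 in knockdown 1.

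Markers of other tissues were read on the same cards. Of the kidney epithelium list, 3 of 4 assays (miR-192, miR-194 and miR-204) were under Ct 35 in all 6 samples. The liver marker miR-122 was undetermined in all 6, 0 of 5 blood cell assays were under 35 in every sample, and of 3 muscle assays miR-133a was. Blood cell assays were not absent, since miR-142-3p and miR-223 were each under 35 in 5 samples, as miR-124 was. miR-150 was under 35 in 2 samples, and miR-142-5p and miR-451 in 0. Of the muscle assays, miR-1 was under 35 in 3 samples and miR-133b in 2. Of 17 other brain-enriched assays on the card, from a list of 19 names, 8 were under 35 in every sample (47.1%) and 4 were undetermined in every sample.

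miR-218, known for its high level in motor neurons, was by far the earliest of the set. Its Ct was 20.5, 21.9 and 19.3 in control 1, 2 and 3 and 21.4, 23.6 and 21.9 in knockdown 1, 2 and 3. It ranked between 9 and 18 among the determined miRNA wells of a card, earlier than 91.1% to 95.9% of them. Relative to U6, in parts per 1000000 (ppm) of the U6 level, it was at 18403, 3978 and 6865 ppm in control 1, 2 and 3 and 11078, 3595 and 2421 ppm in knockdown 1, 2 and 3. On this ratio the lowest value lay in knockdown 3 and the highest in control 1, and the groups overlapped. By raw Ct, control 3 was the earliest and knockdown 2 the latest. Relative to the commonly detected assays, control 3 was likewise highest (6.59 log2 units) and knockdown 2 lowest (4.14).

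A middle tier held miR-9, miR-138 and miR-132. miR-9 came up at Ct 24.1, 24.8 and 24.7 in control 1, 2 and 3 and at 23.2, 24.7 and 25.9 in knockdown 1, 2 and 3. Its ratio was 1469, 548 and 166 ppm in the controls and 3121, 1693 and 151 in the knockdowns, in the same order. Relative to U6 its values spread more between series numbers than between the groups, with both samples of series 3 lowest. The 3 controls spanned 8.87-fold on this scale, against 1.48-fold relative to the commonly detected assays. On that second scale both samples of series 3 were also lowest, at 1.22 log2 units in control 3 and 1.69 in knockdown 3. miR-138 had Ct values of 24.2, 25.6 and 21.9 in control 1, 2 and 3 and 24.6, 26.8 and 24.4 in the knockdowns, or 1393, 317 and 1172 ppm of U6 in the controls and 1150, 380 and 429 ppm in the knockdowns. Here the samples of series 2 had the lowest control and the lowest knockdown. miR-132 lay at Ct 24.8, 24.9 and 23.5 in the controls and 25.3, 26.9 and 26.1 in the knockdowns. Every knockdown Ct of miR-132 was later than every control Ct, as for 24 of 161 assays (14.9%) and for no other of the 5 members determined in all samples, and for 0 assays (0%) was every knockdown Ct earlier. Relative to U6 the groups overlapped, at 959, 529 and 377 ppm in control 1, 2 and 3 and 749, 357 and 131 ppm in knockdown 1, 2 and 3.

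miR-128 and miR-124 sat near the middle of the determined wells on most cards, with undetermined wells left out of this count. In series 3, miR-124 in control 3 was earlier than 33.6% of these wells and miR-128 in knockdown 3 than 33.8%. miR-128, which limits neuronal excitability, had a Ct of 27.4, 28.3 and 28.3 in the controls and 27.8, 28.7 and 31.1 in the knockdowns. That is 158, 48.9 and 13.3 ppm in control 1, 2 and 3 and 127, 106 and 4.25 ppm in knockdown 1, 2 and 3. Knockdown 3 was the latest by more than 2 cycles. miR-124 had a Ct of 27.4, 29.3 and 30.1 in the controls and 28.1 and 28.9 in knockdown 1 and 2, or 150, 24.8 and 4.00 ppm and 104 and 87.7 ppm. Relative to U6 the 3 controls thus spanned 37.6-fold for miR-124 and 11.9-fold for miR-128, against 2.54-fold for miR-132. Relative to the commonly detected assays these spans were 6.01-fold, 1.90-fold and 2.47-fold, so the order of miR-128 and miR-132 turned with the scale. The 2 determined miR-137 wells stood at 4.15 and 3.90 ppm.

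**Figure D1:**
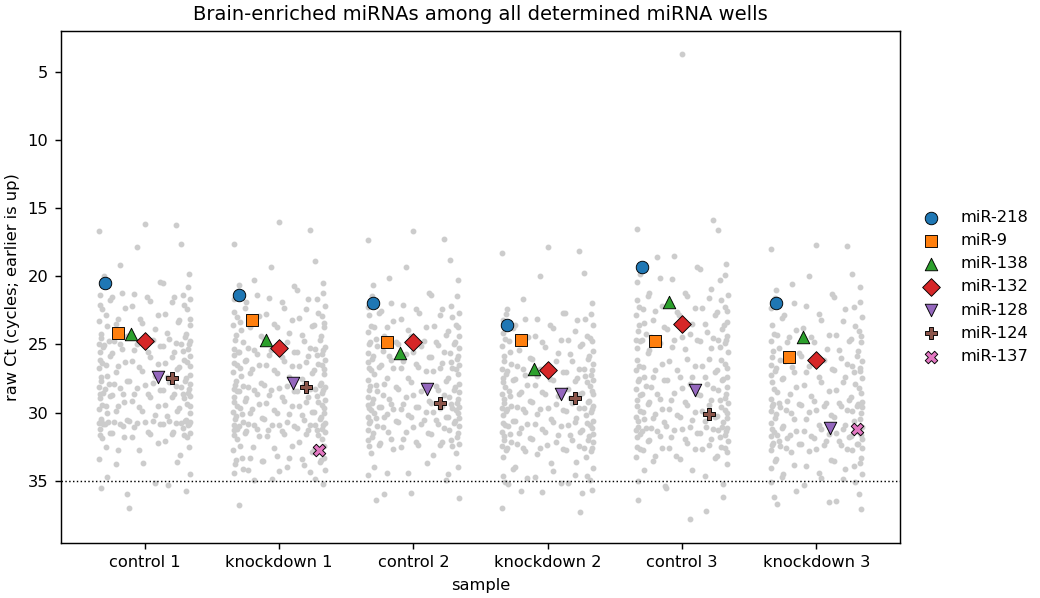
Raw Ct (vertical axis, cycles, earlier wells at the top) of every determined miRNA well in each of the 6 samples (grey points), with the brain-enriched miRNAs as coloured symbols and the Ct 35 limit as a dotted line. miR-218 lies near the top of each card, and miR-9, miR-138 and miR-132 form a middle tier. miR-128 and miR-124 lie near the centre of the determined wells on most cards. The isolated grey point in control 3 is miR-890 at Ct 3.73, determined in that sample alone.

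The order by mean level was miR-218, miR-9, miR-138, miR-132 and miR-128, taken over the 5 members determined in all 6 samples and assuming equal efficiency of the assays. Neighbours in this order were compared within each card, where U6 cancels, with an exact two-sided sign-flip permutation test over 6 samples and adjustment over 4 pairs. miR-218 lay above miR-9 by 3.13 ± 1.55 on the log2 scale (SD, n = 6), higher in 6 of 6 samples (exact p = 0.0312, the smallest possible, adjusted p = 0.0625). miR-132 lay above miR-128 by 3.35 ± 1.30 (SD, n = 6), also higher in 6 of 6 samples, with the same exact and adjusted p. Both adjusted values miss 0.05. Both mean differences exceed their SD, which is a description and not further support. The neighbours and their direction were taken from the means of these same samples, which the p-values do not allow for. The test takes the 6 samples as independent, although they share 3 series numbers. With signs flipped by series number, a test added after seeing the data, both pairs gave exact p = 0.25, the smallest possible. miR-9 and miR-138 differed by 0.022 ± 1.88 (SD, n = 6), with miR-9 higher in 4 of 6 samples (exact p = 0.938, adjusted p = 0.938). miR-138 lay above miR-132 by 0.64 ± 0.93 (SD, n = 6) in 5 of 6 samples (exact p = 0.219, adjusted p = 0.292). The order within the middle tier was therefore not resolved beyond the spread between samples, and the order of miR-9 and miR-138 turned in the controls alone (-0.65).

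The members did not follow the series numbers alike. Relative to the commonly detected assays of the same card, miR-138 was at 1.65 and 0.99 log2 units in control 1 and 2 and at 4.04 in control 3. It was at 1.54 and 0.90 in knockdown 1 and 2 and at 3.19 in knockdown 3, so both samples of series 3 were high. Over the 6 cards its SD was 1.28, larger than that of 90.1% of 161 assays determined in all samples (median SD 0.67). Against the mean of series 1 and 2, the mean of series 3 was higher by 2.35 log2 units for miR-138, 1.40 for miR-218 and 0.80 for miR-132. For miR-9, miR-128 and miR-124 the series 3 mean differed in the other direction, by -0.93, -1.50 and -2.30, the last from control 3 alone. What the series number stands for is not stated, and with 2 samples in series 3 these are values without a test.

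Knockdown was compared with control across all assays in limma, with the series number as a block. Of 189 assays tested, 0 passed an adjusted p of 0.05 in either direction (0%), and 10 had an unadjusted p under 0.05. The 6 members tested were miR-9, miR-124, miR-128, miR-132, miR-138 and miR-218, and 0 of them passed, with 0 at an unadjusted p under 0.05. By fitted value 4 members were lower and 2 higher, with a median of -0.39 log2 units, beside 120 lower and 69 higher assays and a median of -0.13 among all 189. miR-137 and miR-153 could not be tested, having no series number with both samples determined.

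**Figure D2:**
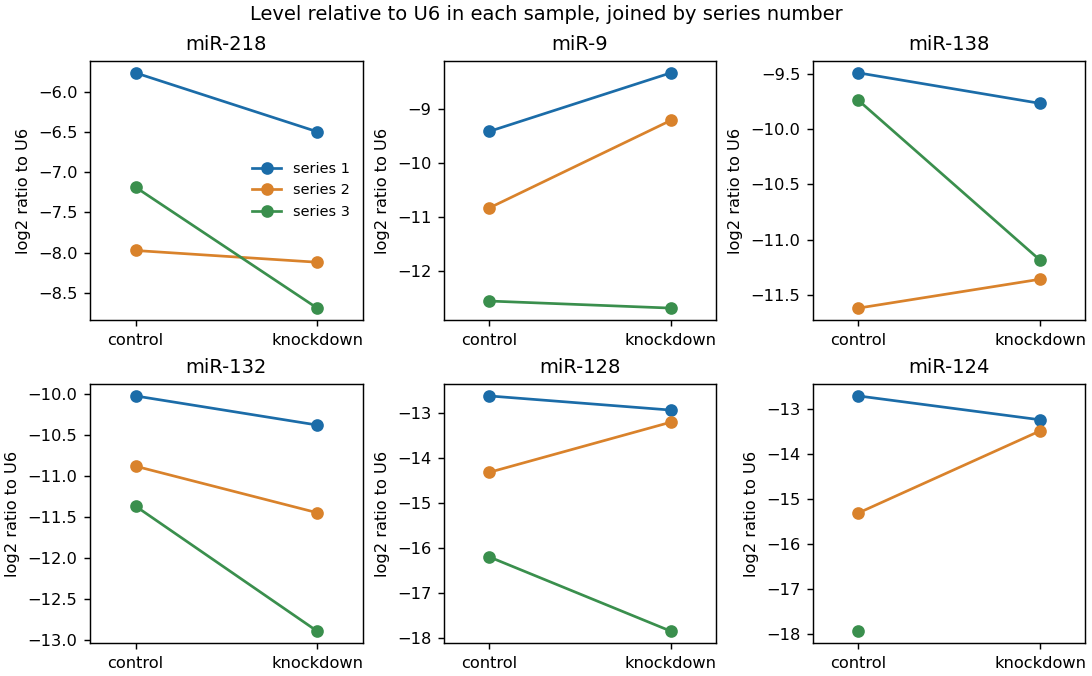
Log2 ratio to U6 (vertical axis, own range in each panel) of the 6 tested miRNAs in control and knockdown samples, with a line joining the samples of each series number. miR-132 and miR-218 are lower in knockdown along all 3 lines, miR-9 is higher along 2 of 3, and miR-124 has no value in knockdown 3.

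miR-132 and miR-218 were lower in knockdown than in control in all 3 series. For miR-132 the knockdown over control ratio was 0.782, 0.675 and 0.347 in series 1, 2 and 3. The fitted log2 fold change was -0.82 (SE 0.45, limma adjusted p = 0.971), with an interval from -1.88 to 0.25. For miR-218 the ratio was 0.602, 0.904 and 0.353, and the fitted value was -0.79 (SE 0.46, limma adjusted p = 0.971). On both miRNAs the lowest ratio was that of series 3, where the median log2 fold change of the commonly detected assays was itself -0.54, against -0.21 in series 1 and 0.33 in series 2. Of the 161 assays determined in all samples, 31 (19.3%) were lower in all 3 series, and of the 5 members among them 2 were. Higher in all 3 series were 7 assays (4.35%) and 0 of these 5 members. None of these 5 members, and 0 of the 161 assays (0%), had control and knockdown ratios to U6 that did not overlap.

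miR-138 had ratios of 0.825, 1.20 and 0.366 in series 1, 2 and 3, lower in 2 of 3, with a fitted log2 fold change of -0.49 (SE 0.49, limma adjusted p = 0.990). Without series 3 that value was -0.0075. miR-128 had ratios of 0.804, 2.16 and 0.319, and its fitted value of -0.28 (SE 0.59, limma adjusted p = 0.990) became 0.40 without series 3. For miR-128 the direction thus rested on series 3.

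miR-9 was the member with the highest fitted change. Its knockdown over control ratio was 2.13, 3.09 and 0.913 in series 1, 2 and 3, and the fitted log2 fold change was 0.86 (SE 0.49, limma adjusted p = 0.971), with an interval from -0.30 to 2.02. By raw Ct, with no reference, the difference was -0.045 log2 units, beside a median of -1.02 for all assays. Series 3 opposed the other series in its ratio to U6, and without series 3 the value was 1.36 (limma adjusted p = 0.388). miR-124 had ratios of 0.692 and 3.54 in series 1 and 2 and none in series 3, so its fitted value of 0.65 (SE 0.72, limma adjusted p = 0.990) averages opposite directions, and it was -0.16 by raw Ct.

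On the second scale miR-9 lay above 0 in every series, and miR-132, miR-218 and miR-138 below 0. Relative to the commonly detected assays, miR-9 was higher in knockdown by 1.26, 1.27 and 0.47 log2 units in series 1, 2 and 3. On the same scale miR-132 was at -0.18, -0.93 and -0.93, miR-218 at -0.56, -0.51 and -0.91, and miR-138 at -0.11, -0.097 and -0.85. miR-128 was at -0.14, 0.75 and -1.05, without a common direction. The fitted value for miR-9 was 1.00 (SE 0.43, unadjusted p = 0.0430, limma adjusted p = 0.711), which does not pass after adjustment. On this scale 19 of 161 assays (11.8%) were higher in all 3 series, miR-9 among them, and 19 (11.8%) were lower in all 3, with miR-132, miR-138 and miR-218 among these.

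**Figure D3:**
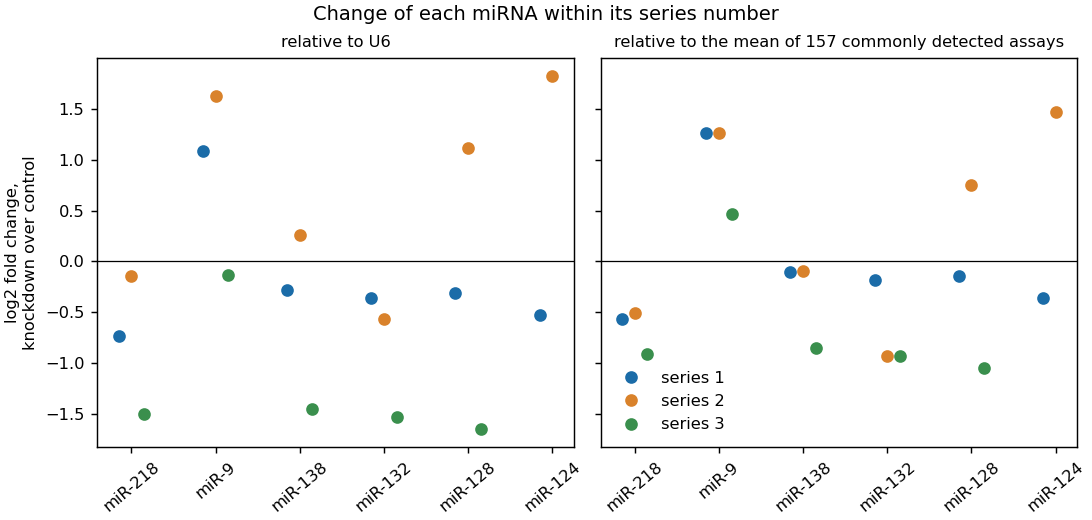
Log2 fold change of knockdown over control within each series number (points, coloured by series) for the 6 tested miRNAs, relative to U6 (left) and relative to the mean Ct of the 157 commonly detected assays (right). On the right all 3 points of miR-9 lie above 0 and all 3 of miR-218, miR-138 and miR-132 lie below 0, while miR-128 and miR-124 fall on both sides.

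Changes of members against each other depend on neither reference, since both wells lie on the same card. The change of miR-9 minus that of miR-138 was 1.36, 1.36 and 1.32 log2 units in series 1, 2 and 3 (mean 1.35 ± 0.027, SD, n = 3). Against miR-218 the change of miR-9 was 1.82, 1.77 and 1.37 (1.66 ± 0.246, SD, n = 3), and against miR-132 it was 1.44, 2.19 and 1.40 (1.68 ± 0.448, SD, n = 3). Against miR-128 it was 1.40, 0.51 and 1.52 (1.14 ± 0.549, SD, n = 3). In all 3 series the change of miR-9 was therefore above that of each of the other 4 members determined in all samples. The mean differences were larger than their SD over series. An exact two-sided sign-flip test over 3 series gives p = 0.25 for each, the smallest it can give, and these 4 differences, among 10 pairs computed, were singled out after their values were seen. Among the others, miR-132 and miR-218 differed in their change by -0.022 ± 0.399 (SD, n = 3; exact p = 0.75). miR-124, undetermined in knockdown 3, is not among these pairs. Relative to U6 its log2 change was below that of miR-9 in series 1 (-0.53 against 1.09). In series 2 it was above that of miR-9 (1.83 against 1.63).

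miR-212, processed from the hairpin next to miR-132 and sharing its seed, was later than miR-132 on every card. Its Ct was 28.3, 29.7 and 27.4 in control 1, 2 and 3 and 28.6, 29.9 and 28.6 in the knockdowns. The gap to miR-132 was 3.51 ± 0.798 cycles (SD, n = 6), later in 6 of 6 samples (exact two-sided sign-flip p = 0.25 by series number, the smallest possible), or 11.4-fold at full and equal efficiency. Within series the gap closed by 0.18, 1.79 and 1.39 cycles in knockdown (1.12 ± 0.837, SD, n = 3; exact p = 0.25, the smallest possible). The fitted log2 fold change of miR-212 was 0.30 (SE 0.48, limma adjusted p = 0.990), opposite in sign to that of miR-132. The difference between these neighbours was thus in 1 direction in all 3 series, but not tested beyond that limit.

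Of the other brain-enriched list, 10 assays were tested and 0 passed an adjusted p of 0.05, with 5 fitted values higher, 5 lower and a median of -0.073. miR-135b had the largest fitted value, 1.52 (SE 0.62, unadjusted p = 0.0419, limma adjusted p = 0.919). Its ratio was 2.58, 8.56 and 1.07 in series 1, 2 and 3, and it came up between Ct 28.3 and 31.3. Without series 3 its value was 2.23 (limma adjusted p = 0.0175), one of 6 calls among 175 assays in that fit (3.43%). That fit gave all assays a common error, so this p-value does not measure the spread of miR-135b itself. The other assays of the list under Ct 35 in all 6 samples were miR-95, miR-139-5p, miR-149, miR-212, miR-328, miR-338-3p and miR-598, with fitted values from -0.54 for miR-139-5p to 0.30 for miR-212. The earliest of them was miR-149, at a median Ct of 23.4 and a fitted value of 0.0023.

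**Figure D4:**
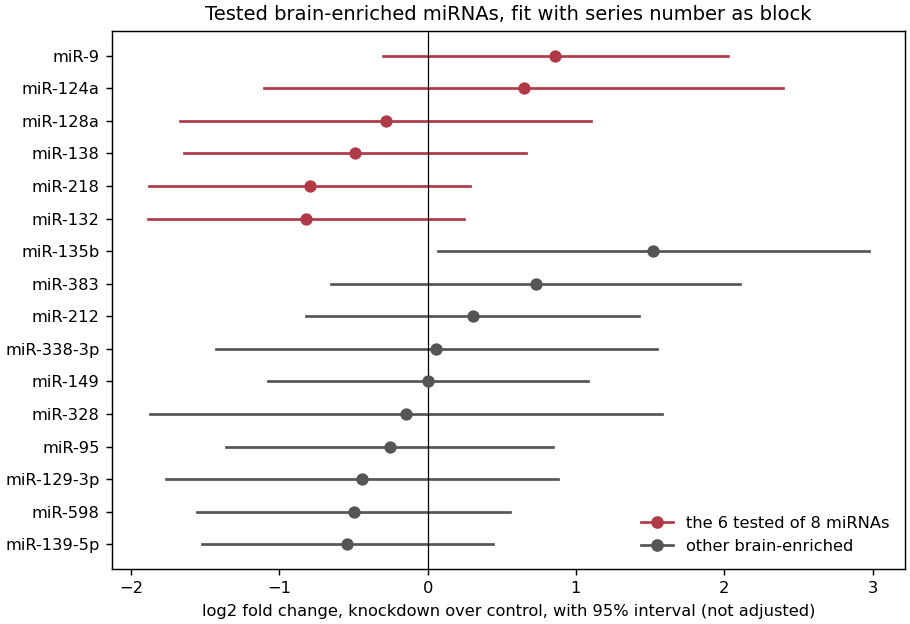
Fitted log2 fold change of knockdown over control, with its unadjusted 95% interval, for the 6 tested members (red) and the 10 tested assays of the other brain-enriched list (grey). Intervals of all members include 0, and among the grey assays only that of miR-135b (0.073 to 2.97) does not.

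For each member, the assays with the most similar profile over the 6 samples were found by the root mean square difference of log2 levels, each centred on its own mean, among 160 other assays determined in all samples. Every card shares its input RNA and plate across these assays, and the values are a description. For miR-218 they were miR-24 (0.24 log2 units) and miR-345 (0.27), where the median over all assays was 0.91. For miR-9 they were miR-579 (0.37) and miR-27b (0.38), and for miR-132 miR-425-5p (0.29) and miR-32 (0.34). For miR-128 they were miR-100 (0.32) and miR-424 (0.37), and for miR-138 miR-484 (0.46) and miR-342-3p (0.47), whose median over all assays was 1.27. Between members, the closest profiles were those of miR-138 and miR-218 (0.48) and of miR-132 and miR-218 (0.51), and the most distant those of miR-128 and miR-138 (1.86).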

How the data were processed

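Per the labels' protocols, RNA was reverse transcribed with Megaplex Pool A primers and run on TaqMan cards. Threshold and baseline settings are not given in the sources used here. The ratio to U6 deposited by the authors equalled 2 to the power of the mean determined U6 Ct minus the assay Ct, within 6.77e-06 log2 units. Its log2 was analysed in limma 3.58.1 (R 4.3.3; lmFit, eBayes, two-sided, Benjamini-Hochberg over all assays tested), with undetermined wells missing. Assays were tested when at least 3 of 6 samples were under Ct 35 and at least 2 series numbers had both samples determined. The series number was a block because, per the file headers, the authors computed fold changes within it. Over 161 assays, deviations from the group means of same-numbered samples correlated at 0.416, 0.527 and 0.625 (across assays, which are not replicates). Between series 1 and 2 the values were 0.249 (control 1 with knockdown 2) and 0.129 (control 2 with knockdown 1). Differently numbered pairs that included series 3 ran from -0.536 to -0.342. The fit was also run on simulated data with every well determined and the same noise in all assays. These data differ in both respects, so nothing is drawn from that run here. The members, lists and tests were chosen with earlier results of these data known. Named assays are the members, seed and cluster partners, other brain-enriched assays under Ct 35 in every sample, and the 2 most similar assays per member. Each assay has 1 well per sample, so well error and sample difference cannot be separated.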

Additional observations from a re-analysis of the deposited data

How the results depend on the processing

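Calls at an adjusted p of 0.05 over the whole card numbered 0 in the main setting and under each alternative that kept all 3 series, and ran from 0 to 6 when a series number was left out. It was 6 without series 3, where 15 had an unadjusted p under 0.05 and the fit gave all assays a common error. Among the members the count was 0 under every alternative run, and in the other brain-enriched list it ran from 0 to 1, the call being miR-135b without series 3. Without the replicate block, 195 assays were tested, 0 passed and 0 had an unadjusted p under 0.05, and the block changed no call. The fitted value of miR-124 was 1.96 without the block against 0.65 with it, since control 3 then counts without a partner. The largest shift of the whole card came with raw Ct, where the median was -1.02 against -0.13. There miR-9 (-0.045) and miR-124 (-0.16) reversed, while miR-132 was at -1.72, miR-218 at -1.70, miR-138 at -1.39 and miR-128 at -1.19. By raw Ct 3 of 6 members had an unadjusted p under 0.05, beside 43 of 189 assays. With undetermined wells at Ct 40, miR-124 reversed to -2.51, which follows from its empty well in knockdown 3. Leaving out a series number gave 0.48 to 1.36 for miR-9 and -0.98 to 0.40 for miR-128, reversed without series 3. It gave -1.05 to -0.46 for miR-132, -0.86 to -0.0075 for miR-138 and -1.12 to -0.44 for miR-218. The level of miR-9 minus miR-138 was -0.65 in the controls alone and ran from -0.70 to 1.12 with a series left out. The count of members detected in every sample was 5 at Ct under 32 and with any determined Ct. What lies behind the shift with raw Ct, the empty well of miR-124 and the differing values of series 3 was not tested.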
